A study of Mus musculus with 12 samples.

Results

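The S100 calcium-binding proteins described here are 10 genes, S100a1, S100a4, S100a6, S100a8, S100a9, S100a10, S100a11, S100a13, S100a16 and S100b, chosen by name among the 55401 genes of the count table. All 10 were in the table, and all 10 had enough reads to be tested. The list was drawn up with earlier results of the same libraries in view, and S100a1 was already known to differ between the activated libraries, so its values in those libraries, and every comparison that uses them, are given as a description without a p-value.

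RNA was sequenced from Pax7-ZsGreen+ satellite cells, the muscle stem cells marked by a fluorescent reporter of Pax7, sorted from the hind limb muscle of adult mice that the study's methods give as 3 to 4 months old. Every mouse carried both the Cxcr4 FL/FL alleles and Pax7-ZsGreen, and every mouse received tamoxifen at 80 mg/kg by intraperitoneal injection on 5 days. The WT mice had no cre and therefore an intact floxed Cxcr4 gene, whereas the Cxcr4 KO mice also carried Pax7-creERT2, which limits the deletion to cells that express Pax7. There were 4 WT and 4 KO libraries of freshly sorted cells, called quiescent, and 2 WT and 2 KO libraries of sorted cells cultured overnight, called activated. The labels do not say that libraries came from separate mice, so the p-values below measure only the spread between these libraries.

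S100 proteins are small, usually dimeric proteins that hold calcium in a pair of loops called EF hands. When calcium is bound they expose a surface that grips target proteins, among them annexins, cytoskeletal proteins, calcium pumps and calcium release channels. S100A1 is the family member best known from heart and skeletal muscle, where it binds the ryanodine receptor and the SERCA calcium pump. S100B marks glia and also acts on myoblasts, S100A8 and S100A9 form the neutrophil protein calprotectin, and S100A10 is the exception that stays in its active shape without calcium.

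The coding sequence of the second calcium loop of each member, 12 codons long, was read from the GENCODE release 21 transcripts on GRCm38, aligned on S100a1. The loops of S100a1, S100a11 and S100a10 are shown because S100a10 differs from the others at the codons that matter for holding calcium. Capitals mark codons 1, 3, 5 and 12, which specify side chains that touch the ion.
S100a1: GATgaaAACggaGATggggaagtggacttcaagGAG
S100a11: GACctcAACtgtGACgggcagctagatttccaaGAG
S100a10: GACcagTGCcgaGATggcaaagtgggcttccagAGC
In 9 of the 10 members all 4 capital codons were among those usual for a calcium ligand, and S100a10 was the member in which they were not.

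Most of the family sits together. On GRCm38, 9 of the members lay on chromosome 3, and S100b (ENSMUSG00000033208) lay on chromosome 10 from 76253853 to 76261159. A cluster of 7 members ran from 90511034 to 90695721 on chromosome 3 over 185 kb, in the order S100a1, S100a13, S100a16, S100a4, S100a6, S100a8 and S100a9. The other 2, S100a11 and S100a10, lay 2.82 Mb further along, from 93520488 to 93564643. S100a1 (ENSMUSG00000044080; 90511034 to 90514392, minus strand) and S100a13 (ENSMUSG00000042312; 90514435 to 90524581, plus strand) stand head to head with 42 bases between their annotated starts, at chr3:90514393-90514434, shown on the plus strand because the members on its sides moved apart in the activated KO libraries.
Between S100a1 and S100a13: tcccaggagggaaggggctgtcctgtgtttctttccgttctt
RefSeq promoter windows on GRCm38.p6, from 250 bases before to 50 after a gene start, were available for 9 of the members and were searched on both strands for common promoter motifs. The E-box letters CANNTG were held by 7 of the 9 member windows and by 72.3% of all 32851 windows. For the GC box, GGGCGG, these were 3 of 9 and 35.7%. For the CCAAT box they were 2 of 9 and 37.4%. For the TATA box, TATAAA, they were 3 of 9 and 13.6%. None of these motifs occurred in the stretch between S100a1 and S100a13 or in the S100a1 window, and the S100a13 window, which overlaps it, held 1 E-box.

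Some facts about the libraries touch all values. Quiescent libraries held 12775593 to 23717013 counts and activated libraries 3172164 to 5427280, and CT010467.1, which holds ribosomal RNA sequence, had 11.5% to 40.3% of the counts in activated against 0.295% to 0.807% in quiescent libraries. The quiescent libraries carried the Y-linked Ddx3y at 289 to 570 CPM and the activated libraries at 0 to 2.28 CPM, with Xist at 451 to 817 CPM in the latter, so culture, sex and depth cannot be told apart. The 10 satellite cell markers summed to 4460 to 7530 CPM in quiescent libraries and 1800 to 2480 CPM in activated libraries, with 1 of the 10, Calcr, at 0 in KO activated replicate 1. The 15 markers of mature muscle fibre rose from 399 to 1300 CPM in quiescent libraries to between 9770 and 22300 CPM in activated libraries. Cxcr4 itself had 61.2, 59.1, 89.6 and 112 CPM in WT and 17.6, 21.2, 12.5 and 17.1 CPM in KO quiescent libraries, against 33.3 and 14.4 CPM in WT and 5.39 and 13.7 CPM in KO activated libraries, where KO replicate 2 lay close to WT replicate 2. CPM here divide counts by TMM-adjusted library sizes, and values of a group are given in the order of the replicates. In such bulk RNA, fewer cells of a type and less RNA per cell cannot be told apart.

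Compared per length, as FPKM computed from the counts, S100a10 had the highest mean of the members in each group (mean 310 in WT quiescent, 294 in KO quiescent, 104 in WT activated and 82 in KO activated libraries). In WT quiescent libraries it was followed by S100a16 (117), S100a11 (100) and S100a6 (76.9), whose ranges overlapped from each to the next, then by S100a1 (16) and S100a13 (13.4), which also overlapped. S100b (3.65), S100a9 (1.49), S100a4 (1.42) and S100a8 (0.955) were the lowest and overlapped along that order. The order in KO quiescent libraries was alike, except that S100a13 (20) stood before S100a1 (12.2) and S100a8 (2.41) before S100a9 (1.75) and S100a4 (1.17), with overlapping ranges. In KO activated libraries S100a1 was at rank 3 with 37.3 FPKM, between S100a6 (70.6) and S100a16 (30.6), and its range of 27 to 47.7 overlapped both. There the range of S100a10 (81.1 to 82.9) lay within that of S100a6 (21.2 to 120), which was the higher of them in replicate 2. The FPKM that the authors deposited, 1 value a group, were 15.6, 11.9, 7.35 and 36.4 for S100a1 in WT quiescent, KO quiescent, WT activated and KO activated cells.

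**Figure D1:**
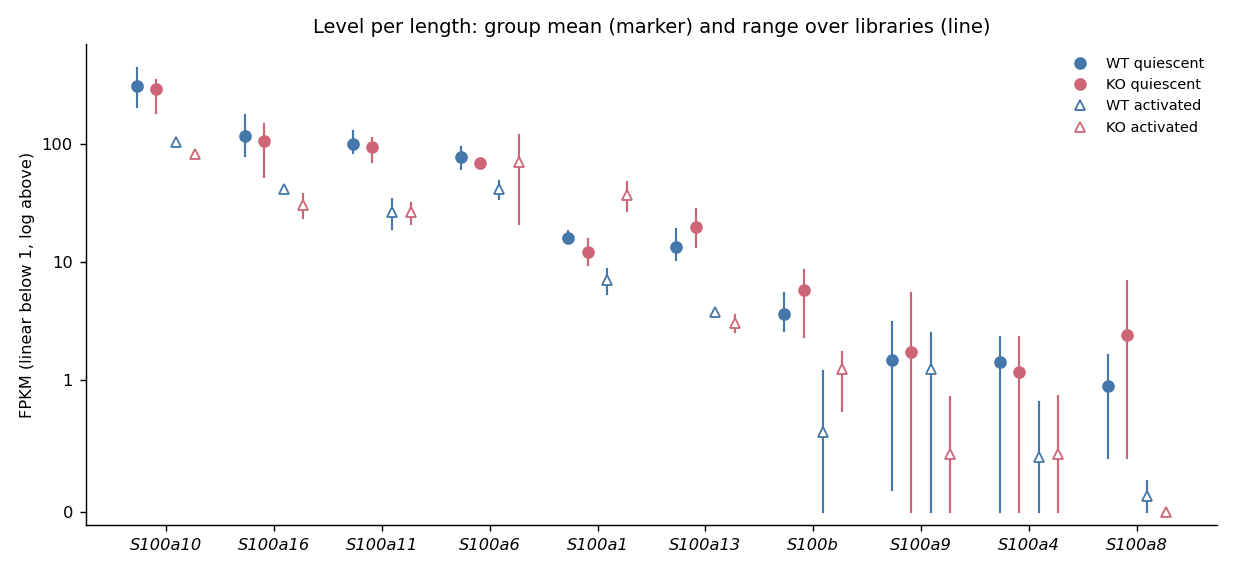
Level of each S100 member per length (FPKM from counts, linear below 1 and logarithmic above) in the 4 groups; markers are means of 4 quiescent or 2 activated libraries and lines run from the lowest to the highest library. S100a10 has the highest mean in every group, within the range of S100a6 in KO activated libraries, and S100a1 is the member that stands higher in KO activated libraries (27 to 47.7 FPKM) than in any other group.

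In quiescent cells the loss of Cxcr4 left the S100 genes without a called difference. A gene was called at an adjusted p under 0.05 (edgeR's quasi-likelihood test with Benjamini-Hochberg adjustment over 25771 genes), a log2 fold change beyond 1 either way and, in the groups compared, more than 10 scaled counts on average. By this rule 0 of the 10 members were called, against 0.0155% of all genes, and 0 members had an unadjusted p under 0.05. DESeq2 called 0 members as well. The KO and WT libraries overlapped for each of the 10, where 1.7% of all genes had groups that did not overlap.

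**Figure D2:**
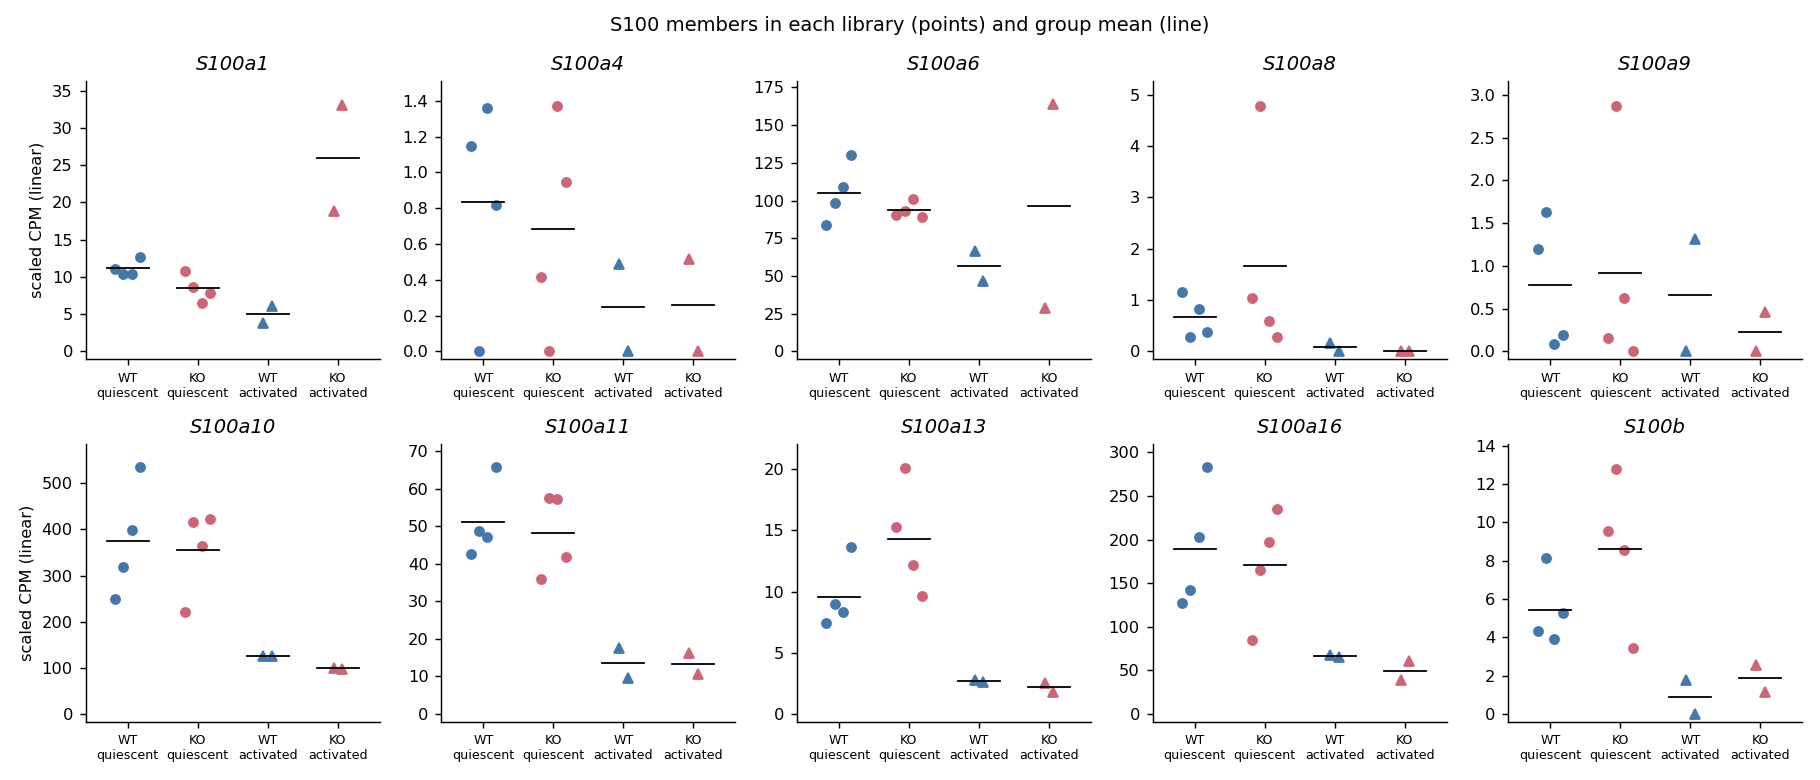
TMM-scaled CPM of the 10 members in each of the 12 libraries (points, replicates from left to right) with the group mean (line), on linear axes from 0; WT in blue, KO in red, quiescent as circles and activated as triangles. In the S100a1 panel both KO activated libraries (18.8 and 33.1 CPM) lie above all others, and in the S100a6 panel KO activated libraries are the lowest and the highest of all 12 (29 and 164 CPM).

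S100a1, the muscle member, had 11, 10.4, 10.4 and 12.7 CPM in WT quiescent libraries and 10.8, 8.68, 6.52 and 7.89 CPM in KO quiescent libraries. Of the KO libraries 3 lay below all WT libraries and the other lay within their range, and the log2 fold change of KO over WT was -0.39 (SE 0.27, adjusted p = 1). After overnight culture it had 3.76 and 6.13 CPM in WT libraries, from 23 and 14 counts, and 18.8 and 33.1 CPM in KO libraries, from 73 and 145 counts. Both KO activated libraries were higher and both WT activated libraries lower than every quiescent library. The log2 fold change of KO over WT in activated cells was 2.45 (SE 0.44), a fold of 5.46. It is the 1 member called there, where 0.0504% of all genes were called, and nothing is read from it because S100a1 was known from this contrast. That call was lost with DESeq2's size factors, with a filter at a mean count of 10, with either tool on the activated libraries alone, with a replicate block within state, without WT activated replicate 1 and without KO activated replicate 2.

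Set against quiescent cells of the same genotype, S100a1 stood lower after culture in WT and higher in KO. In WT it fell by 1.23 on the log2 scale (SE 0.39), from a mean of 11.1 ± 1.08 CPM (SD, n = 4) to 4.94 ± 1.68 CPM (SD, n = 2). In KO the log2 fold change was 1.62 (SE 0.33), from 8.47 ± 1.79 CPM (SD, n = 4) to 25.9 ± 10.1 CPM (SD, n = 2). The 15 fibre markers summed to 9770 and 21300 CPM in the WT and 12400 and 22300 CPM in the KO activated libraries, and their part in the S100a1 values was not tested. These comparisons use the same activated libraries as the contrast between genotypes and are not separate evidence for it. Both passed the call thresholds, but without WT activated replicate 1 the WT value was -0.78, without KO activated replicate 2 the KO value was 1.17, and neither then passed. The difference between the KO effects in activated and quiescent cells was 2.84 on the log2 scale (SE 0.52). In that comparison edgeR called 0 members and 0% of all genes, while DESeq2 called 48 genes, S100a1 among them. Nothing is read from that call, because S100a1 was known from the activated libraries.

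S100a13, which takes part in the release of FGF1 from cells, fell after culture in both genotypes, together with its neighbour S100a1 in WT but not in KO. It had 7.41, 9.01, 8.33 and 13.6 CPM in WT and 15.3, 20.1, 12.2 and 9.63 CPM in KO quiescent libraries, with a log2 fold change of 0.57 (SE 0.30, 95% interval -0.06 to 1.21, adjusted p = 1). In activated libraries it had 2.78 and 2.63 CPM in WT and 2.57 and 1.83 CPM in KO, from 6 to 17 counts a library. On activation it fell by 1.82 (SE 0.46, adjusted p = 0.00558) in WT and fell by 2.7 (SE 0.48, adjusted p = 0.000209) in KO on the log2 scale. All activated libraries lay below all quiescent ones, and the WT call was lost without either WT activated library. Seen as a ratio, S100a1 had 1.49, 1.16, 1.24 and 0.929 counts per S100a13 count in WT quiescent libraries and 0.704, 0.432, 0.534 and 0.819 in KO quiescent libraries. The ratio was 1.35 and 2.33 in WT activated and 7.3 and 18.1 in KO activated libraries. This ratio was chosen after the values were seen and is given as a description.

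**Figure D3:**
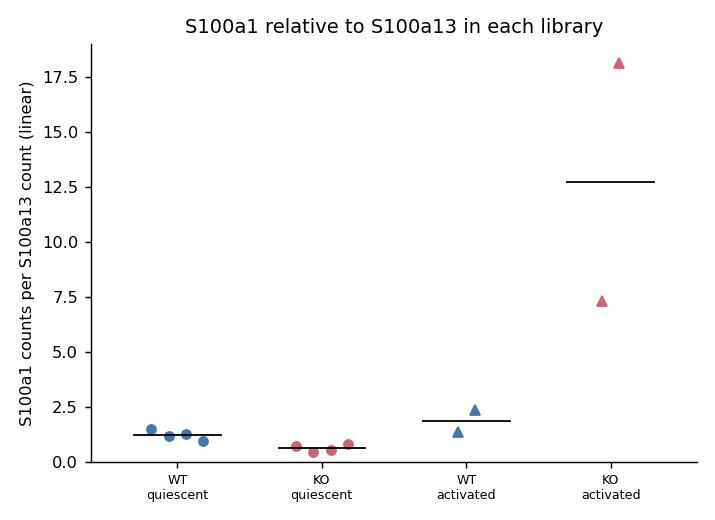
Counts of S100a1 per count of its head-to-head neighbour S100a13 in each library (points) with the group mean (line), linear axis from 0. The 4 KO quiescent libraries (0.432 to 0.819) lie below the 4 WT quiescent libraries (0.929 to 1.49), and the 2 KO activated libraries (7.3 and 18.1) lie above all others.

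S100b, the glial member, was near the floor after culture. It had 4.33, 8.16, 3.9 and 5.3 CPM in WT and 9.55, 12.8, 8.56 and 3.45 CPM in KO quiescent libraries, and the groups overlapped (log2 fold change 0.67, SE 0.46, adjusted p = 1). In activated libraries it had 1.8 and 0 CPM in WT and 2.57 and 1.14 CPM in KO. On activation it fell by 2.23 (SE 0.74, adjusted p = 0.0289) in WT and fell by 2.22 (SE 0.70, adjusted p = 0.0199) in KO on the log2 scale. The WT call was lost without WT quiescent replicate 2 (adjusted p = 0.0668) or WT activated replicate 2 (adjusted p = 0.223), and the KO call without KO activated replicate 2 (adjusted p = 0.203).

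The summed glial markers, like S100b, were lower in activated than in quiescent libraries. In quiescent WT replicates 1, 3 and 4 and KO replicate 4, S100b had 3.45 to 5.3 CPM and the markers summed to 516 to 761 CPM. In quiescent WT replicate 2 and KO replicates 1 and 3 it had 8.16 to 9.55 CPM, with sums of 895 to 969 CPM. KO quiescent replicate 2 stood apart, with the highest S100b (12.8 CPM) and a marker sum of 688 CPM. In KO activated replicates 1 and 2 the markers summed to 108 and 300 CPM, with S100b at 2.57 and 1.14 CPM, from 10 and 5 counts. In WT activated replicates 1 and 2 they summed to 152 and 99.8 CPM, with S100b at 1.8 and 0 CPM. The 12 Schwann cell and glia markers, which do not include S100b, summed to 516 to 969 CPM in quiescent and 99.8 to 300.0 CPM in activated libraries, and 9 of the 11 tested were called lower in WT and 10 in KO, where 16.5% and 18.6% of all genes were. Of the 12, Foxd3 was at 0 counts in all libraries and Gfap in the activated libraries. Lower levels after culture were not particular to glial markers, since 8 of the 10 satellite cell markers were called lower in WT and 9 in KO. The part of glial RNA in the S100b values was not tested.

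**Figure D4:**
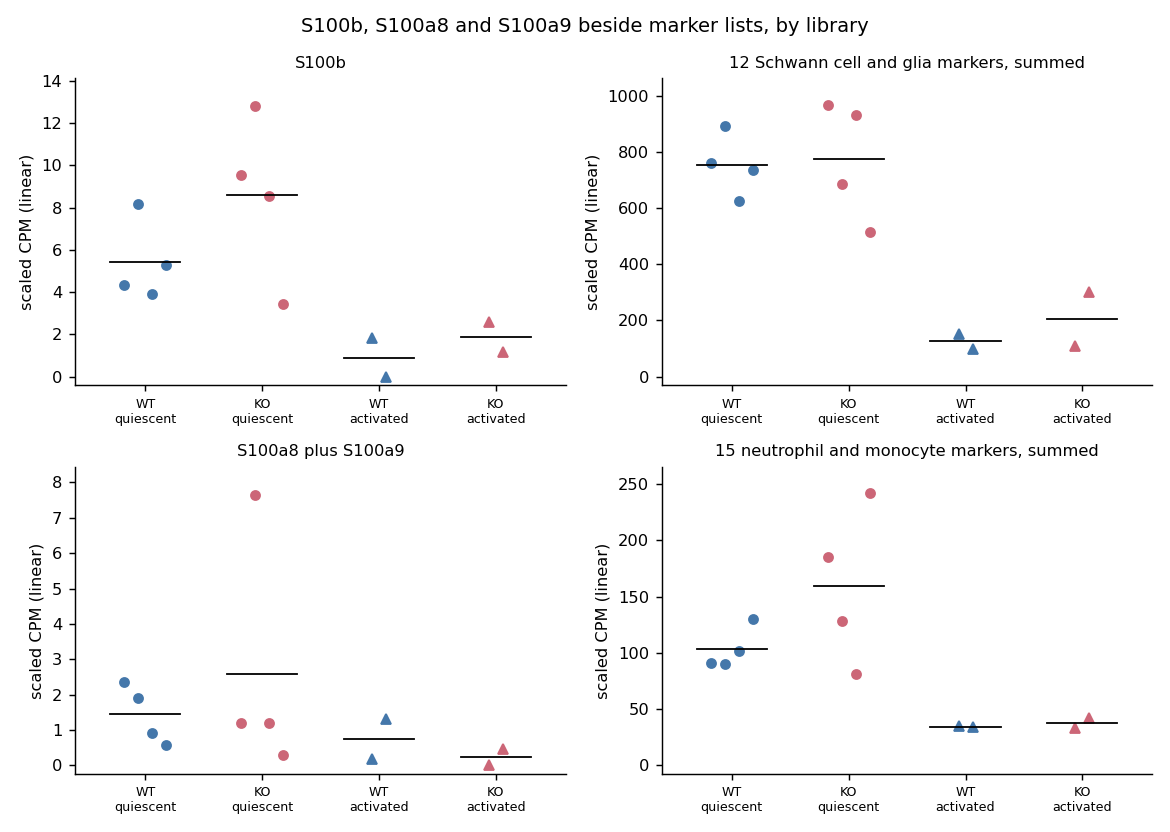
TMM-scaled CPM by library (points, with the group mean as a line, linear axes from 0) of S100b beside the sum of 12 Schwann cell and glia markers, and of S100a8 plus S100a9 beside the sum of 15 neutrophil and monocyte markers. Glia markers fall from 516 or more in quiescent libraries to 300.0 or less in activated ones. KO quiescent replicate 2 is highest for S100a8 (4.78 CPM), and KO quiescent replicate 4 has the highest marker sum (242 CPM), of which Lyz2 makes up 164 CPM.

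S100a10, which binds annexin A2 and the large scaffold protein AHNAK at the cell membrane, made up 43.6% to 53.2% of the counts of the 10 members in 11 libraries and 26.6% in KO activated replicate 2. It had 249, 319, 398 and 536 CPM in WT and 222, 416, 364 and 423 CPM in KO quiescent libraries. In activated libraries it had 125 and 126 CPM in WT and 100 and 98.3 CPM in KO. All activated libraries lay below all quiescent libraries. The level fell by 1.58 (SE 0.33, adjusted p = 0.00104) in WT and fell by 1.84 (SE 0.33, adjusted p = 0.000263) in KO on the log2 scale. In activated cells KO lay below WT without overlap, but the log2 fold change of -0.34 (SE 0.35, 95% interval -1.08 to 0.4) had an adjusted p of 0.912.

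S100a11, a partner of annexin A1, had 42.6, 48.7, 47.2 and 65.8 CPM in WT and 36.1, 57.7, 57.4 and 41.9 CPM in KO quiescent libraries. In activated libraries it had 17.6 and 9.63 CPM in WT and 16.2 and 10.7 CPM in KO. It fell by 1.86 (SE 0.34, adjusted p = 0.000293) in WT and fell by 1.85 (SE 0.34, adjusted p = 0.000284) in KO on the log2 scale, and each of these calls held without any single library. Its processed copy S100a11-ps on chromosome 12 had at most 23 counts in a library, and whether reads that match both were kept is not given in the sources used here. The difference between KO and WT was -0.08 (SE 0.24) in quiescent and -0.07 (SE 0.38) in activated cells.

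S100a6, or calcyclin, which binds the ubiquitin-ligase adaptor encoded by Cacybp, varied widely between the KO activated replicates. It had 83.8, 98.1, 109 and 130 CPM in WT and 90.5, 93.1, 101 and 89.1 CPM in KO quiescent libraries. In activated libraries it had 66.8 and 46.9 CPM in WT, below all quiescent libraries, but 29 and 164 CPM in KO, on either side of all others. The log2 fold change on activation was -0.88 (SE 0.42, adjusted p = 0.12) in WT and 0.05 (SE 0.40, adjusted p = 0.932) in KO, and neither was called. Without KO activated replicate 2, the KO value became -1.67 and was called (adjusted p = 0.00285). Between KO and WT in activated cells the value was 0.76 (SE 0.47, adjusted p = 0.718) and ran from -1.03 to 1.51 when 1 library was left out.

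S100a16, a widely expressed member, had 127, 142, 203 and 283 CPM in WT and 84.7, 165, 197 and 235 CPM in KO quiescent libraries. In activated libraries it had 68 and 65.7 CPM in WT and 38.5 and 60.5 CPM in KO. It fell by 1.5 (SE 0.39, adjusted p = 0.00629) in WT and fell by 1.78 (SE 0.39, adjusted p = 0.00163) in KO on the log2 scale, and every activated library lay below every quiescent library. The WT call was lost without either WT activated library.

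S100a4, which binds nonmuscle myosin and is common in fibroblasts, was barely detected. It had 1.15, 0, 1.36 and 0.819 CPM in WT and 0.417, 0, 1.37 and 0.944 CPM in KO quiescent libraries, and 0.49 and 0 CPM in WT and 0.514 and 0 CPM in KO activated libraries. At 0 to 3 counts in the activated libraries, no change was detectable at this depth. Its level is also uncertain because 302 of its exonic bases, 51.7%, are shared with Gm42674 on the same strand, which had 0 counts in every library, and the treatment of reads in overlapping genes is not given in the sources used here.

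S100a8 and S100a9, the calprotectin subunits, were also low. S100a8 had 1.15, 0.284, 0.833 and 0.385 CPM in WT and 1.04, 4.78, 0.582 and 0.283 CPM in KO quiescent libraries, and 0.163 and 0 CPM in WT and 0 and 0 CPM in KO activated libraries. S100a9 had 1.2, 1.63, 0.0877 and 0.193 CPM in WT and 0.157, 2.87, 0.623 and 0 CPM in KO quiescent libraries, and 0 and 1.31 CPM in WT and 0 and 0.456 CPM in KO activated libraries. KO quiescent replicate 2 was the highest library for both.

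S100a8 was called lower on activation in KO cells (adjusted p = 0.0317). With 0 counts in both KO activated libraries, a floor of 3 counts over the group makes it at least 4.61-fold lower than in KO quiescent cells, or at least 1.75-fold without KO quiescent replicate 2. The call was lost without that library, without either KO activated library and with edgeR on the KO libraries alone. The 15 neutrophil and monocyte markers, which include neither gene, summed to 81 to 242 CPM in quiescent and 33.4 to 42.4 CPM in activated libraries, and in KO quiescent replicate 2 the neutrophil granule genes Ngp, Camp, Ltf and Retnlg had 58, 8, 105 and 0 counts. The 15 markers summed to 128 CPM in that library, against 185, 81 and 242 CPM in KO quiescent replicates 1, 3 and 4. Of these markers Ngp (3.96 CPM), Elane (1.71 CPM) and Fcgr3 (9.63 CPM) were highest in that library. Others went the other way, with Cxcr2 and Mmp8 at 0 there and Cd14 (19.3 CPM) lower than in any other quiescent library. Of the other blood cell markers, Ptprc (25.8 CPM) was highest there and Cd68 (17.4 CPM) was the lowest among quiescent libraries. The part of such cells in the S100a8 values was not tested.

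Counted over the family with S100a1 included, 6 of the 10 members were called lower on activation in WT and 0 higher, where 26.1% of all genes were called, 16.5% lower and 9.64% higher. In KO 6 were called lower and 1 higher, where 29.7% of all genes were called, 18.6% lower and 11.1% higher. The median log2 fold change of the members was -1.54 in WT and -1.84 in KO, and that of all genes was -0.92 and -0.96, so the whole table leaned the same way. How far it leaned depends on the filter. With a mean count of at least 10 the median of all genes was -0.46 in WT and -0.49 in KO, and with no filter -1.93 and -1.84. S100a1, S100a10, S100a11, S100a13, S100a16 and S100b were called lower in WT, and the same genes except S100a1, together with S100a8, in KO. Activated libraries lay below quiescent ones without overlap for 8 members in WT and 6 in KO, against 38.4% and 36.1% of all genes, and above them for 1 member, S100a1, in KO, against 18.3%. The WT count fell to 3 without WT activated replicate 1 and to 3 without WT activated replicate 2, and the KO count ran from 5 to 7 when 1 library was left out. Between KO and WT in activated cells, 3 members (S100a10, S100a13 and S100a16) lay lower and 1 (S100a1) higher without overlap, against 9.5% and 15.2% of all genes.

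**Figure D5:**
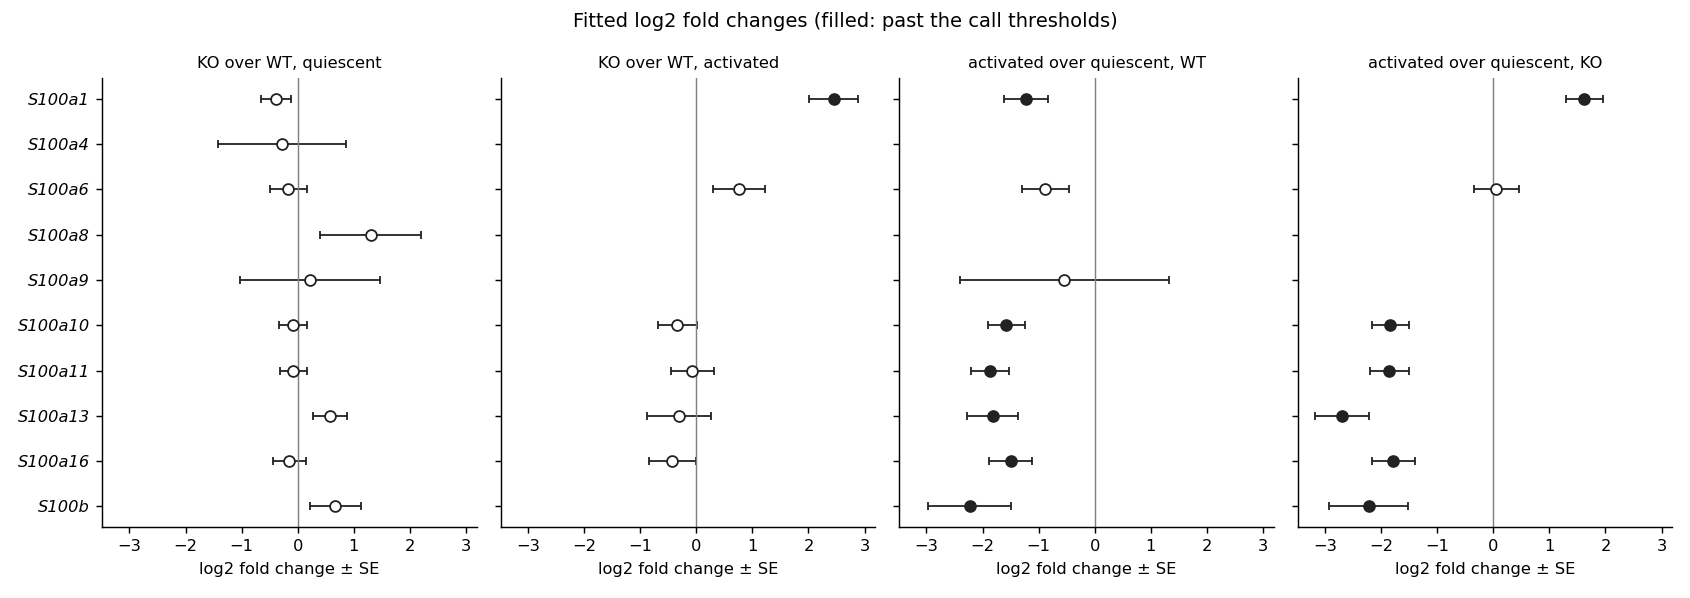
Log2 fold changes (points) with their SE (bars) from edgeR's fit in 4 comparisons, filled where a gene passed the call thresholds; members with a mean count of 10 or less in a comparison, and S100a8 in the KO comparison where it was at 0, are left out. S100a1 is at 2.45 for KO over WT in activated cells, at -1.23 for activation in WT and at 1.62 in KO, while S100a10, S100a11, S100a13, S100a16 and S100b lie left of 0 in both activation panels.

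A further list held other S100 genes and S100pbp, which encodes a protein that binds S100P and is not itself a family member. The table listed 9 and 6 were tested, of which 2 were called lower on activation in WT and 2 in KO, where 16.5% and 18.6% of all genes were, and none was called higher. S100pbp had 612 to 1377 counts in quiescent and 20 to 99 in activated libraries and fell by 2.07 (SE 0.31, adjusted p = 3.92e-05) in WT and fell by 1.52 (SE 0.29, adjusted p = 0.000499) in KO on the log2 scale. S100a7a was called in WT (1 count in each activated library) and S100a14 in KO (0 counts in both). No gene of this list was called between KO and WT in either state by edgeR.

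Annexins, the calcium-dependent membrane-binding proteins that several S100 dimers bridge, were also lower after culture where called. Of 10 tested, 6 were called lower in WT (Anxa1, Anxa2, Anxa3, Anxa4, Anxa6 and Anxa11) and 4 in KO (Anxa1, Anxa2, Anxa6 and Anxa11), with none higher, where 16.5% and 18.6% of all genes were called lower. Their median log2 fold change was -1.48 (WT) and -1.19 (KO), beside -0.92 and -0.96 for all genes. Anxa2, the partner of S100a10, had 102, 126, 128 and 151 CPM in WT and 79.7, 118, 129 and 157 CPM in KO quiescent libraries. It had 77.4 and 34.2 CPM in WT and 37.8 and 40.8 CPM in KO activated libraries, and fell by 1.17 (SE 0.33, adjusted p = 0.0105) in WT and fell by 1.62 (SE 0.34, adjusted p = 0.000921) in KO on the log2 scale. Every activated library lay below every quiescent one. Anxa1, the partner of S100a11, fell by 3.04 (SE 0.35, adjusted p = 2.41e-06) in WT and fell by 5.02 (SE 0.41, adjusted p = 4.15e-08) in KO on the log2 scale, to 1.54 and 2.51 CPM in the KO activated libraries.

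The 18 other partners and receptors split. On activation 3 were called higher in both genotypes, namely Atp2a1, Cacybp and Ryr1, against 3 lower in WT (Ahnak, Ryr2 and Tlr4) and 4 lower in KO (Ager, Ahnak, Iqgap1 and Ryr2). Over all genes 9.64% were called higher and 16.5% lower in WT, and 11.1% higher and 18.6% lower in KO. Their median log2 fold change was -0.04 for WT cells and 0.17 for KO cells, beside -0.92 and -0.96 for all genes. Ryr1, the skeletal muscle calcium release channel that S100A1 binds, rose by a log2 fold change of 2.30 (SE 0.31, adjusted p = 1.18e-05) in WT and 2.26 (SE 0.30, adjusted p = 1.23e-05) in KO. Atp2a1, the fast-fibre SERCA pump, which is also on the list of fibre markers, rose by 4.46 (SE 0.40, adjusted p = 1.41e-07) in WT and 4.17 (SE 0.40, adjusted p = 2.34e-07) in KO on the log2 scale. Both are genes of the contractile fibre, and both rose in WT cells, where S100a1 fell, and in KO cells, where S100a1 rose. The part of fibre RNA in these values was not tested. Cacybp rose by 2.47 (SE 0.28, adjusted p = 1.97e-06) in WT and 2.41 (SE 0.28, adjusted p = 2.14e-06) in KO. Ahnak, which S100a10 anchors with annexin A2, fell by 2.46 (SE 0.36, adjusted p = 3.54e-05) in WT and fell by 2.72 (SE 0.37, adjusted p = 1.27e-05) in KO on the log2 scale. Ager, a cell surface receptor for several S100 proteins, had 2.3, 5.19, 4.53 and 3.78 CPM in KO quiescent libraries and 0.514 and 0.228 CPM in KO activated libraries. Those activated values rest on 2 and 1 counts. In WT it had 4.44, 4.9, 4.61 and 3.66 CPM in quiescent and 3.43 and 0 CPM in activated libraries, and was not called.

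Among 15 other small EF-hand calcium sensors and buffers, 3 were called higher and 4 lower in WT, and 3 higher and 5 lower in KO, with a median log2 fold change of 0.41 and -0.09. Over all genes 9.64% were higher and 16.5% lower in WT, 11.1% higher and 18.6% lower in KO, and the medians were -0.92 and -0.96. Those higher were Pvalb, Calm3 and Ncs1 in WT and Pvalb, Calm3 and Tnnc1 in KO. Those lower were Calm2, Capns1, Chp1 and Gca in both, and Sri in KO. Pvalb, the fast-fibre calcium buffer and another of the fibre markers, rose by 5.71 (SE 0.59, adjusted p = 7e-07) in WT and 4.91 (SE 0.57, adjusted p = 2.18e-06) in KO on the log2 scale. The calmodulin genes parted, with Calm3 higher by 1.30 (SE 0.27, adjusted p = 0.00118) and Calm2 at a log2 fold change of -1.52 (SE 0.25, adjusted p = 0.000113) in WT. Of the annexins, partners and EF-hand genes none was called between KO and WT in either state, or in the difference between the states, by edgeR.

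Likeness of pattern was measured over the 12 libraries as the root mean square difference of log2 CPM, each gene centred on its mean, among 12861 other genes with an average log2 CPM over 1. The genes most like S100a1 were Amn1 (0.309), Zfp783 (0.35), Mtm1 (0.375), Amot (0.38) and Tsc22d3 (0.417). Those most like S100a6 were Anapc13 (0.289), Gm6421 (0.302), Tcf7l2 (0.306), Gtpbp2 (0.318) and Mttp (0.324). None of these is a member or a gene of the lists above.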

How the data were processed

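RNA-seq libraries of sorted satellite cells were analysed from 12 samples, grouped by their labels. The authors trimmed reads with Trim Galore 0.6.0, mapped them to GRCm38.p6 with STAR 2.7.2a and counted them on GENCODE release 25 genes with Rsubread. The deposited counts are raw and whole, and how strand, overlapping genes and reads with several matches were treated is not given in the sources used here. The authors also deposited FPKM, 1 value per group, printed only as their value. The members and lists were chosen with earlier results of these data known. All 10 members were named, and of the other lists the genes called.

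Genes were filtered with edgeR's filterByExpr, which left 25771 of 55401, and scaled by TMM. All libraries entered a single edgeR 4.0.16 model in R 4.3.3, with the 4 groups as terms, and contrasts were tested by quasi-likelihood with Benjamini-Hochberg adjustment. The SE is the absolute log2 fold change over the square root of F. FPKM were computed from counts with the summed exon length of GENCODE release 21, which matched 55141 gene IDs. The code was tested on simulated counts. Intervals of fold changes come from the fit and include the spread between libraries, whereas floors (3 counts) cover counting error only. Alternatives were DESeq2's size factors, other filters, the adjusted p alone, a library size without CT010467.1, DESeq2 1.42.0, edgeR on the compared groups, replicate blocks and leaving out each library.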

Additional observations from a re-analysis of the deposited data

Results flagged for a closer look

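S100a8 stood at 4.78 CPM in KO quiescent replicate 2, against 1.04, 0.582 and 0.283 CPM in the other KO quiescent libraries. Its gap to the nearest library was 0.831 of the range of the group, just above Dixon's limit for 4 samples, a limit that chance passes in about 1 of 20 groups. The limit was applied to all 10 members in both the WT and the KO quiescent libraries, and no other value passed it, so a pass by chance alone could occur. S100a9 was highest in the same library, at 2.87 CPM.

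The change of S100a1 on activation differed between the genotypes by 2.84 on the log2 scale (SE 0.52), KO minus WT. Both WT activated libraries lay below all 4 WT quiescent libraries, and both KO activated libraries lay above all 4 KO quiescent libraries. Over the alternatives the difference ran from 2.32 to 3.17. S100a1 was known from the contrast of the activated libraries, which this difference contains, so it is given as a description.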

How the results depend on the processing

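The quiescent comparison of KO and WT had 0 members called under all 18 alternatives. The 1 member called in activated cells (S100a1) became 0 with DESeq2's size factors within edgeR, a mean count of at least 10, DESeq2 or edgeR on the compared groups alone and a replicate block within state, and 0 to 1 when 1 library was left out. Its log2 fold change stayed positive, from 1.92 to 2.78. The difference between states went from 0 to 1 with no filter on low counts and with DESeq2 on all libraries, and 0 to 1 when 1 library was left out (1 without WT activated replicate 2 or KO activated replicate 1). Activation called 3 to 6 members in WT and 5 to 7 in KO when 1 library was left out. S100a1 was the member in the activated comparison and in the difference, and nothing is read from those calls. The causes were not tested.

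Genes called over the whole table in quiescent cells went from 4 to 48 without a filter. In activated cells 13 became 295 without a filter, 8 with DESeq2's size factors, 2 with a mean count of at least 10, 145 and 29 with DESeq2 on all or the compared libraries, 3 with edgeR on the compared groups and 0 to 194 when 1 library was left out. In the difference 0 became 170 without a filter, 48 with DESeq2 and 0 to 82 when 1 library was left out.

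Whether replicate numbers pair the libraries was not settled. Deviations of same-numbered KO and WT libraries correlated at 0.24, 0.16, -0.27 and 0.59 in quiescent cells over 12862 genes. Not every library correlated best with its own number, though the highest value, 0.59, was of such a pair. The activated values were -0.07 and -0.07, but 2 libraries a group deviate as mirror images, so they cannot test pairing. Same-numbered quiescent libraries were close in depth, at 17532019, 12775593, 23058947 and 22785815 counts in WT and 17238391, 13075208, 22897189 and 23717013 in KO. The last 2 of each genotype were also close to each other. With the number as a block, activation called 5 members in WT and 7 in KO, S100a16 fell by 0.98 in WT, under the fold threshold, the activated comparison kept 1 member and 23 genes and the difference had 6 genes. Under the blocks S100a9 in quiescent KO over WT went from 0.22 to -0.72 and -0.42, and S100a6 on activation in KO to -0.01. With the block within state the activated comparison had 0 members and 10 genes.

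Other signs that turned were near 0 or in low counts. The difference for S100a11 was -0.03 with DESeq2's size factors and with DESeq2, and that for S100b -0.03 with the size factors. When 1 library was left out, KO over WT in quiescent cells ran from -0.85 to 0.13 for S100a4, -0.07 to 1.70 for S100a8, -1.49 to 0.88 for S100a9, -0.23 to 0.15 for S100a10, -0.17 to 0.06 for S100a11 and -0.34 to 0.12 for S100a16. In activated cells it ran from -1.03 to 1.51 for S100a6 and -0.47 to 0.39 for S100a11. The difference ran from -0.86 to 1.67 for S100a6, -6.34 to 4.65 for S100a9, -0.39 to 0.47 for S100a11 and -0.71 to 7.13 for S100b. Activation ran from -6.59 to 0.84 for S100a9 in WT and -1.67 to 0.81 for S100a6 in KO. A lone remaining activated library was assumed to vary like the other groups. S100a4, S100a8, S100a9 and S100b had too few counts after culture for a firm value.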
